A study of Homo sapiens with 12 samples.

Results

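The integrin and laminin genes are the 35 genes whose symbols name an integrin alpha chain (18 genes), an integrin beta chain (7 genes) or a laminin chain (10 genes), out of 19775 genes with a probe set of their own. They were chosen by symbol alone, and each was read by the brightest of its own probe sets, those annotated to no other gene. ITGB6 was read only by probe sets that carry a second gene symbol and was left out, and LAMA3 was not analysed here. RNA came from H9 cells, an established human embryonic stem cell line (passages 28 to 35), which in all 4 groups carried a Tet-on construct that switches on GCNF, the orphan nuclear receptor encoded by NR6A1, in the presence of doxycycline (Dox). There were 3 arrays per group: differentiating cells labelled 6 days of 1 µg/ml Dox (Dox-labelled day 6), differentiating cells labelled 6 days of 1 µM retinoic acid (RA-labelled day 6), undifferentiated cells after 4 days of 1 µg/ml Dox (d0 with Dox), and untreated undifferentiated cells (d0). Undifferentiated cells grew in mTeSR on a basement membrane matrix, itself rich in laminin, whereas DMEM/F12 with 15% serum was used for differentiation, so day and medium cannot be told apart. The labels do not say whether the line is a single clone. They call replicates biological without saying how cultures were kept apart, so the p-values cover only array-to-array spread, which may be technical.

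Integrins are cell surface receptors made of an alpha and a beta chain. The pair decides what is bound: laminins, collagens, proteins with an RGD motif such as fibronectin and vitronectin, or molecules on other cells. Laminins are trimers of an alpha, a beta and a gamma chain and form the basement membrane sheet on which epithelial cells sit. Human embryonic stem cells are known to secrete the trimer of LAMA5, LAMB1 and LAMC1 and to attach to it through the receptor of ITGA6 and ITGB1. They attach to vitronectin through ITGAV with ITGB5.

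The arrays were checked before use. Their median signal was 64.2 to 78.0 on the deposited intensity scale and replicate arrays correlated at r = 0.980 to 0.982 over all probe sets, with no identical pair. The 3 arrays per group limit the precision. The brightest NR6A1 probe set averaged 1009 ± 223 on Dox-labelled day 6 arrays, 528 ± 37.8 on RA-labelled ones, 2869 ± 269.9 at d0 with Dox and 1457 ± 115 at d0 (SD, n = 3 each). Of the 7 NR6A1 probe sets, this and 2 others had all Dox-labelled above all RA-labelled day 6 arrays, as labelled, 3 had all of them below, against the labels, and 1 overlapped. One of those against the labels, chosen after its values were seen, had 29.2 ± 13.7 on Dox-labelled and 336 ± 70.9 on RA-labelled day 6 arrays, against 615 ± 40.8 at d0 with Dox and 26.8 ± 17.6 at d0. The other 2 against the labels averaged 176 and 166 on Dox-labelled and 566 and 406 on RA-labelled day 6 arrays. At d0 with Dox they averaged 665 and 458, and at d0 120 and 121. The 2 others with the labels averaged 408 and 365, 201 and 207, 1091 and 1060, and 705 and 579 in the same groups and order. All 3 with the labels thus averaged less on Dox-labelled day 6 arrays than at d0. The 3 against the labels stood further above d0 on RA-labelled than on Dox-labelled day 6 arrays. CYP26A1, a classic retinoic acid target, also went against the labels, with 29594 ± 1005 on Dox-labelled and 271 ± 37.0 on RA-labelled day 6 arrays. Day 6 groups are therefore called by their labels only, and the direction of every comparison between them, and which d0 group each is set against, rests on labels that CYP26A1 and 3 NR6A1 probe sets go against and 3 NR6A1 probe sets go with. Summed signal of 9 pluripotency markers was 18207 to 18889 on Dox-labelled day 6 arrays, 18911 to 21048 on RA-labelled ones, 96928 to 101858 at d0 with Dox and 113273 to 123191 at d0. The ratio of 3' to 5' signal of ACTB, a measure of RNA quality, was 2.33 ± 0.058, 2.59 ± 0.29, 3.86 ± 0.011 and 3.24 ± 0.139 in the same groups and order.

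A gene is said to have risen or fallen where limma's adjusted p was under 0.05, and log2 fold changes are given ± SE on the log2(signal + 16) scale, which understates changes of dim genes. Signals of different probe sets were not compared with each other. The Dox-labelled arm sets Dox-labelled day 6 against d0 with Dox, and the RA-labelled arm sets RA-labelled day 6 against d0. By label Dox-labelled day 6 had 6 days of Dox and d0 with Dox had 4 days. The d0 with Dox cells may therefore not be the culture from which that arm started. From d0 with Dox to Dox-labelled day 6, 15 of the 35 genes rose and 7 fell, against 22.2% and 23.9% of all genes (46.1% in either direction). With each array centred on its median, the median of all genes in that comparison lay at 0.11, 5407 of all genes rose and 3606 fell (60.0% of calls higher, against 48.2% without centring), and 19 of the 35 genes rose and 6 fell. From d0 to RA-labelled day 6, 17 rose and 7 fell, against 25.3% and 25.2% of all genes (50.5% in either direction). The median log2 fold change of the 35 genes was 0.24 and 0.43 in these 2 comparisons, beside -0.03 and -0.01 over all genes. Between the day 6 groups 7 were higher and 10 lower on Dox-labelled arrays, against 13.7% and 12.2% of all genes (25.9% in either direction). At d0, 5 were higher and 4 lower with Dox, against 7.75% and 5.16% of all genes (12.9% in either direction). Of the 35 genes, 13 had every group mean under 221, the signal of the median gene, and ITGAD and LAMB4 stayed under 16 in every group mean.

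**Figure D1:**
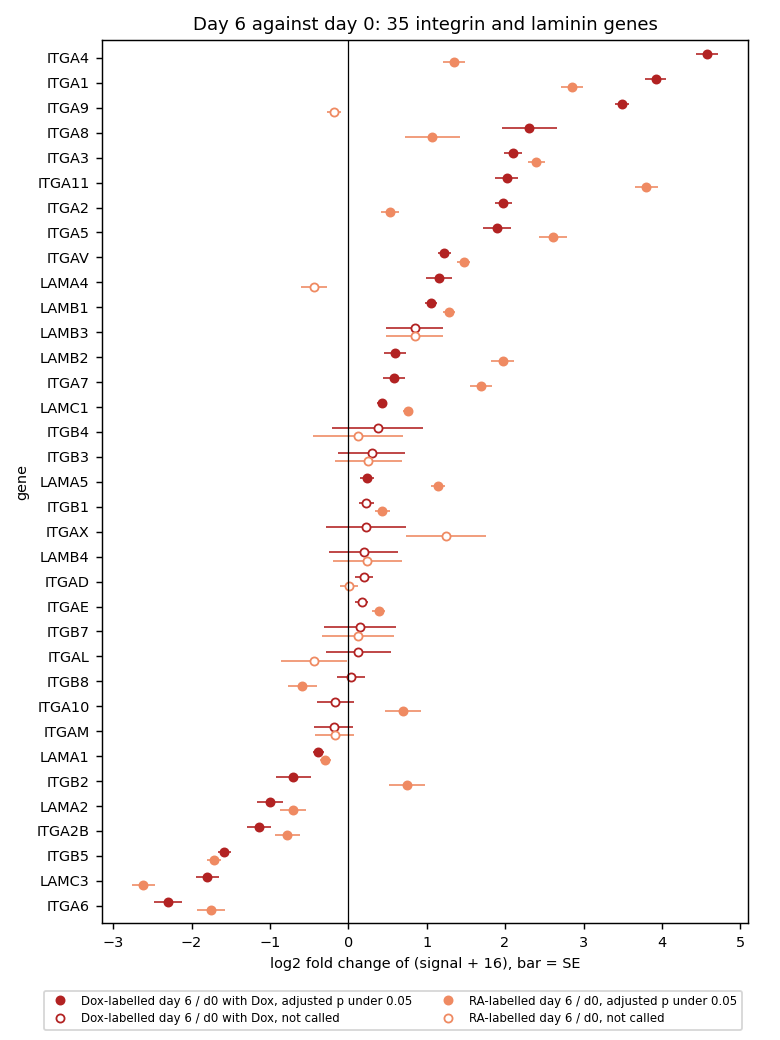
Log2 fold change (x axis) of each of the 35 genes (y axis) from d0 with Dox to Dox-labelled day 6 and from d0 to RA-labelled day 6, with bars for the SE and filled points for an adjusted p under 0.05. ITGA4 lies at 4.58 and 1.35 and ITGA9 at 3.49 and -0.19, while ITGA6 and LAMC3 lie at the low end in both.

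Promoter windows were read for the 4 laminin chains that rose together at day 6, since they are the chains of the trimers described below, and for the single promoter of the set that held a half-site of the kind GCNF binds. Each window is the 250 bases before a RefSeq start site on assembly GRCh38.p14, written 5' to 3' on the gene's strand, and 24 of the 35 genes had 31 windows in all. The laminin windows are chr20:62367313-62367562 (minus strand) for LAMA5, chr7:108003162-108003411 (minus strand) for LAMB1, chr3:49133051-49133300 (minus strand) for LAMB2 and chr1:183023170-183023419 (plus strand) for LAMC1. Capitals mark the GC box GGGCGG on either strand, of which overlapping matches were counted separately.
LAMA5: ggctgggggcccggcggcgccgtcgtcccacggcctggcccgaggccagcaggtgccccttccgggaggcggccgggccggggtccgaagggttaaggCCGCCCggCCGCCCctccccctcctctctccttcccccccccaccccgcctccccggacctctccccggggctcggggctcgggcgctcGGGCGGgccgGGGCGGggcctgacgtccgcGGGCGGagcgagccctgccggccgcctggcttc
LAMB1: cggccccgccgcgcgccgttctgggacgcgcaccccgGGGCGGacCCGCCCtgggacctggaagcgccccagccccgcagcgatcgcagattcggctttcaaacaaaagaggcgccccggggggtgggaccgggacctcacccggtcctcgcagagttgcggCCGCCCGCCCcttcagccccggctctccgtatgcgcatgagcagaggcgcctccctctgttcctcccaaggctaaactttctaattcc
LAMB2: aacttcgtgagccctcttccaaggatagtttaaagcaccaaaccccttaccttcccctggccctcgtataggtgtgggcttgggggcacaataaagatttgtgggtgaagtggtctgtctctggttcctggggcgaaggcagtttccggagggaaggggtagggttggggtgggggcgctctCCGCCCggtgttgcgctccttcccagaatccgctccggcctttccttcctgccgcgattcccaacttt
LAMC1: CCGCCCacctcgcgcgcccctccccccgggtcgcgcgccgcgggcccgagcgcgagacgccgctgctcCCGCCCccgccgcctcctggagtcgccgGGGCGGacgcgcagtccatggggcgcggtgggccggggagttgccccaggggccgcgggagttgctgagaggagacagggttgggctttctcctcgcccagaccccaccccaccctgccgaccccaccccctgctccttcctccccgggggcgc
There were 5 matches in the LAMA5 window, 4 in LAMB1, 1 in LAMB2 and 3 in LAMC1. The GC box was found in 16 of the 31 windows of the set and in 42.6% of all 35116 windows, so it is common in promoters of any kind. GCNF is known to bind the extended half-site TCAAGGTCA, which was found in 0 of the 31 windows and in 0.319% of all windows. Its shorter core AAGGTCA, which lies inside the longer motif, was found in 3.44% of all windows and in 1 window of the set, at an alternative start of ITGAV (chr2:186599955-186600204, plus strand), where capitals mark it on the other strand.
ITGAV: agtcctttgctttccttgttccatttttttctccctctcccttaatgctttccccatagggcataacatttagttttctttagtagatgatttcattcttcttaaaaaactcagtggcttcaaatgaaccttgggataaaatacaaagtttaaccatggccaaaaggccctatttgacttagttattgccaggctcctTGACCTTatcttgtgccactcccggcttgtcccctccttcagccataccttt
A match is a description of the letters and not a binding site, and a window without one says nothing of the factor.

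The chains of the trimer of LAMA5, LAMB1 and LAMC1, and LAMB2, which takes the place of LAMB1 in a related trimer, were all higher at day 6 in both arms. LAMB1 read 15891, 15484 and 14840.0 on Dox-labelled day 6 arrays, 17137, 17571 and 16158 on RA-labelled ones, 7533, 7629 and 7095 at d0 with Dox, and 7224, 7438 and 6241 at d0. All 6 day 6 arrays stood above all 6 d0 arrays. LAMB1 rose by 1.05 ± 0.08 in the Dox-labelled arm (adjusted p = 2.18e-06) and by 1.28 ± 0.08 in the RA-labelled arm (adjusted p = 3.46e-07), and was not called between the day 6 groups (-0.14 ± 0.08) or with Dox at d0 (0.09 ± 0.08). LAMC1, the gamma chain of most laminins, read 11864, 12383 and 12643 on Dox-labelled day 6 arrays, 15254, 15311 and 14531 on RA-labelled ones, 9081, 8758 and 9580 at d0 with Dox, and 9053, 8985.5 and 8623 at d0. The RA-labelled arrays were the highest and did not overlap any other group. LAMC1 rose by 0.43 ± 0.06 (adjusted p = 0.000252) and 0.76 ± 0.06 (adjusted p = 2.87e-06) in the Dox-labelled and RA-labelled arms, and was 0.29 ± 0.06 lower on Dox-labelled than on RA-labelled arrays as a log2 value (fold change -0.29, adjusted p = 0.00701).

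LAMA5 and LAMB2 were higher with Dox at d0 as well as at day 6. LAMA5, the alpha chain of many adult basement membranes, read 3353, 3370 and 3492 on Dox-labelled day 6 arrays, 4914, 4126 and 4182 on RA-labelled ones, 2726, 2818 and 3088 at d0 with Dox, and 2102, 1848 and 1989 at d0. The 4 groups did not overlap. Its log2 fold change was 0.54 ± 0.09 with Dox at d0 (adjusted p = 0.00351), 1.15 ± 0.09 from d0 to RA-labelled day 6 (adjusted p = 1.61e-06) and 0.24 ± 0.09 from d0 with Dox to Dox-labelled day 6 (adjusted p = 0.0454). The last call was lost without d0 replicate 1 or 3, replicate 1 or 2 of d0 with Dox, RA-labelled replicate 3 or any of the 3 Dox-labelled replicates (0.21 to 0.25). LAMB2 read 1182, 1294 and 1419 on Dox-labelled day 6 arrays, 1955, 2174 and 2246 on RA-labelled ones, 925, 757 and 890 at d0 with Dox, and 607, 421 and 584 at d0. These groups did not overlap either, and their order was the same as for LAMA5. LAMB2 rose by 0.67 ± 0.14 with Dox at d0 (adjusted p = 0.0127), by 1.97 ± 0.14 in the RA-labelled arm (adjusted p = 1.03e-06) and by 0.59 ± 0.14 in the Dox-labelled arm (adjusted p = 0.00616). Without replicate 1 of d0 with Dox its change at d0 was 0.61 and not called. Between the day 6 groups the log2 fold change was -0.37 ± 0.09 for LAMA5 (adjusted p = 0.012) and -0.71 ± 0.14 for LAMB2 (adjusted p = 0.00481), lower on Dox-labelled arrays.

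LAMA1, the alpha chain of the earliest embryonic laminin, took another course. It read 3022, 3017 and 2972 on Dox-labelled day 6 arrays, 2627, 2416.5 and 2271 on RA-labelled ones, 4035, 3937 and 3806 at d0 with Dox, and 3067, 2880 and 3020 at d0. The arrays of d0 with Dox stood above all others, and the RA-labelled arrays below all others. LAMA1 rose by 0.39 ± 0.07 with Dox at d0 (adjusted p = 0.00485) and was 0.30 ± 0.07 higher on Dox-labelled than on RA-labelled day 6 arrays (adjusted p = 0.00903). It fell by 0.38 ± 0.07 in the Dox-labelled arm (adjusted p = 0.00096) and by 0.29 ± 0.07 in the RA-labelled arm (adjusted p = 0.00446).

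LAMC3, a gamma chain of a minor set of laminins, had the steepest fall of any laminin chain in both arms. Its signal was 106, 69.1 and 72.7 on Dox-labelled day 6 arrays, 71.0, 93.8 and 80.3 on RA-labelled ones, 300.1, 321.5 and 348 at d0 with Dox, and 656, 549.5 and 539.6 at d0. The day 6 groups overlapped, and both lay below the d0 groups, which did not overlap. LAMC3 fell by 0.81 ± 0.15 with Dox at d0 (adjusted p = 0.00598), by 2.61 ± 0.15 in the RA-labelled arm (adjusted p = 1.72e-07) and by 1.80 ± 0.15 in the Dox-labelled arm (adjusted p = 3.84e-06). Its other probe set was near the floor, and with the mean of both its change at d0 was -0.54 and not called.

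LAMA4, known from vessel and muscle basement membranes, was dim but differed between the day 6 groups. It read 177, 188.5 and 165 on Dox-labelled day 6 arrays, 41.8, 49.6 and 77.0 on RA-labelled ones, 83.9, 59.1 and 69.1 at d0 with Dox, and 75.2, 86.8 and 76.5 at d0. The Dox-labelled day 6 arrays alone stood apart. LAMA4 was 1.45 ± 0.17 higher in log2 there than on RA-labelled arrays (adjusted p = 0.000151) and rose by 1.16 ± 0.17 in the Dox-labelled arm (adjusted p = 0.000219). Averaged over its 5 probe sets these values were 0.44 and 0.38, and neither was called. LAMA2, the alpha chain of muscle basement membrane, averaged 107.5 ± 13.4 on Dox-labelled day 6 arrays, 159 ± 38.0 on RA-labelled ones, 230.4 ± 16.9 at d0 with Dox and 267 ± 48.8 at d0. It fell by 1.00 ± 0.17 in the Dox-labelled arm (adjusted p = 0.000721) and by 0.71 ± 0.17 in the RA-labelled arm (adjusted p = 0.00559), the last not called with the mean of its 4 probe sets (-0.43). Between the day 6 groups LAMA2 was not called (-0.48 ± 0.17). On 2 other probe sets it was lower on Dox-labelled than on RA-labelled arrays (-0.80 and -1.25, adjusted p over all probe sets 0.0228 and 0.0045). These 2 were not called in the RA-labelled arm (-0.20 and -0.44). LAMB3, an epidermal chain, and LAMB4 had group means of at most 38.5 and 15.3, and no comparison called either.

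**Figure D2:**
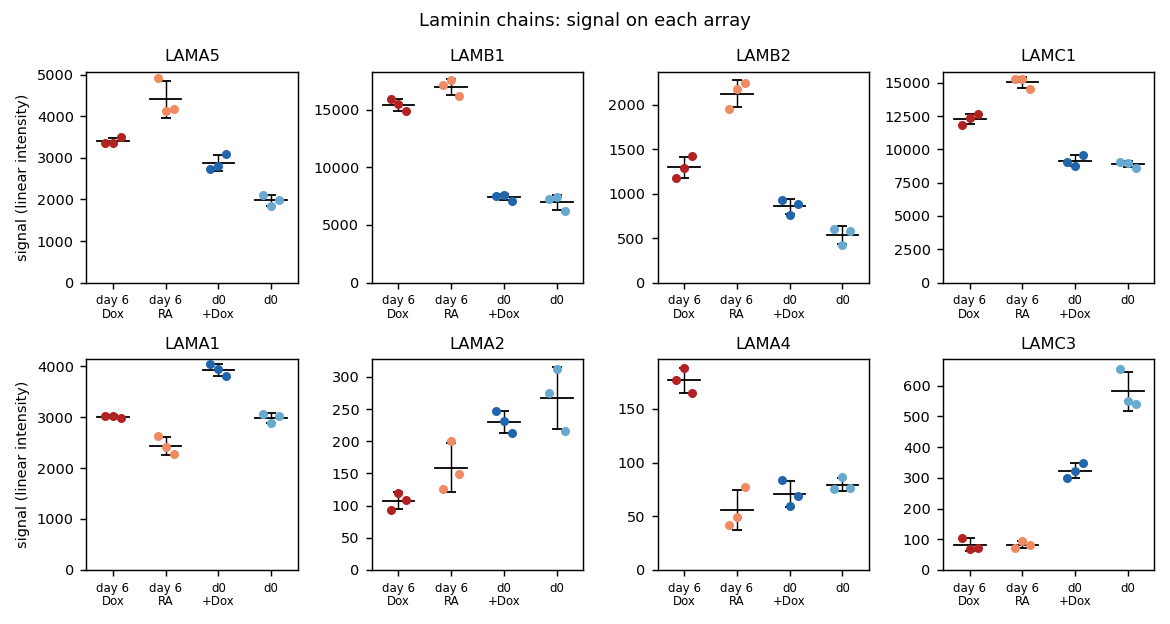
Signal (y axis, linear intensity) of 8 laminin chains on each array, by group on the x axis, with 3 points per group and lines for the mean ± SD. LAMA5, LAMB1, LAMB2 and LAMC1 are higher in both day 6 groups than in the d0 groups, whereas LAMC3 and LAMA2 are lower, and LAMA4 stands apart on Dox-labelled day 6 arrays.

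Of the laminin-binding alpha chains, ITGA6 fell at day 6 while ITGA3 and ITGA7 rose. ITGA6, the chain of the main laminin receptor of embryonic stem cells, read 1073, 1013 and 1315 on Dox-labelled day 6 arrays, 1715, 1526 and 2182 on RA-labelled ones, 4888, 5729 and 6289 at d0 with Dox, and 5711, 7441 and 5215 at d0. Every day 6 array was below every d0 array, and the d0 groups overlapped. ITGA6 fell by 2.30 ± 0.18 in the Dox-labelled arm (4.92-fold lower, adjusted p = 2.38e-06) and by 1.75 ± 0.18 in the RA-labelled arm (3.36-fold lower, adjusted p = 1.28e-05), and a second probe set moved the same way (-2.38 and -1.84). With Dox at d0 its log2 fold change was -0.11 ± 0.18 and not called. Between the day 6 groups it was -0.66 ± 0.18 (adjusted p = 0.0206), a call lost without RA-labelled replicate 3 (-0.52) or without Dox-labelled replicate 1 or 2 (-0.62 and -0.58).

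ITGA3, which pairs with ITGB1 to bind laminins with LAMA5 or LAMA3, read 887, 817 and 1034 on Dox-labelled day 6 arrays, 1274, 1351 and 1229 on RA-labelled ones, 184, 213 and 204 at d0 with Dox, and 257, 237 and 202 at d0. The day 6 groups were apart from each other and far above the d0 groups, which overlapped. ITGA3 rose by 2.10 ± 0.11 in the Dox-labelled arm (adjusted p = 1.66e-07) and by 2.40 ± 0.11 in the RA-labelled arm (adjusted p = 4.42e-08), and its log2 fold change between the day 6 groups was -0.49 ± 0.11 (adjusted p = 0.00859). ITGA7, the laminin receptor chain of muscle, read 2990.0, 3049 and 3810 on Dox-labelled day 6 arrays, 4777, 4533.5 and 4308 on RA-labelled ones, 2156, 2288 and 2085 at d0 with Dox, and 1305, 1188 and 1752 at d0. RA-labelled day 6 was the highest, followed by Dox-labelled day 6, d0 with Dox and d0, without overlap. ITGA7 rose by 0.63 ± 0.14 with Dox at d0 (adjusted p = 0.017), by 0.58 ± 0.14 in the Dox-labelled arm (adjusted p = 0.00696) and by 1.69 ± 0.14 in the RA-labelled arm (adjusted p = 3.36e-06). The call at d0 was lost without d0 replicate 1 (0.59), d0 replicate 2 (0.52) or replicate 2 of d0 with Dox (0.60). The log2 fold change of -0.47 ± 0.14 between the day 6 groups (adjusted p = 0.0353) was not called without replicate 1 of d0 with Dox, any of the 3 RA-labelled replicates or Dox-labelled replicate 1 or 2 (-0.41 to -0.51). ITGB4, the hemidesmosome partner of ITGA6, had group means of at most 47.1 on its brightest probe set and was not called there. Another dim probe set of ITGB4 averaged 7.68 at d0 with Dox and 47.9 at d0 (-1.44, adjusted p over all probe sets 0.00419). It was also lower in the RA-labelled arm (-0.62, adjusted p 0.0453), as was a further dim one (-1.55, adjusted p 0.0136).

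ITGB1, the beta chain shared by the receptors above and by the collagen receptors, was read by 3 bright probe sets that differed in size of change. On the brightest one ITGB1 read 33564, 30181 and 30969 on Dox-labelled day 6 arrays, 33557, 27013 and 32071 on RA-labelled ones, 26584, 26106 and 28009 at d0 with Dox, and 23088, 21144 and 24279 at d0. The highest signal of any probe set was 37889 to 48726 per array, so this probe set lay near the top of the scale. ITGB1 rose by 0.43 ± 0.10 on it in the RA-labelled arm (adjusted p = 0.00312), and was not called in the Dox-labelled arm (0.23 ± 0.10, adjusted p = 0.0739), with Dox at d0 (0.24 ± 0.10) or between the day 6 groups (0.04 ± 0.10). The next brightest probe set averaged 23578, 28360 and 11758 on Dox-labelled day 6, RA-labelled day 6 and d0 with Dox arrays, and 11206 on d0 arrays. On that probe set the log2 fold change was 1.00 in the Dox-labelled arm and 1.34 in the RA-labelled arm (adjusted p over all probe sets 9.72e-06 and 8.36e-07), and the third gave 0.89 and 1.20. All 3 were above their d0 values in both arms.

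**Figure D3:**
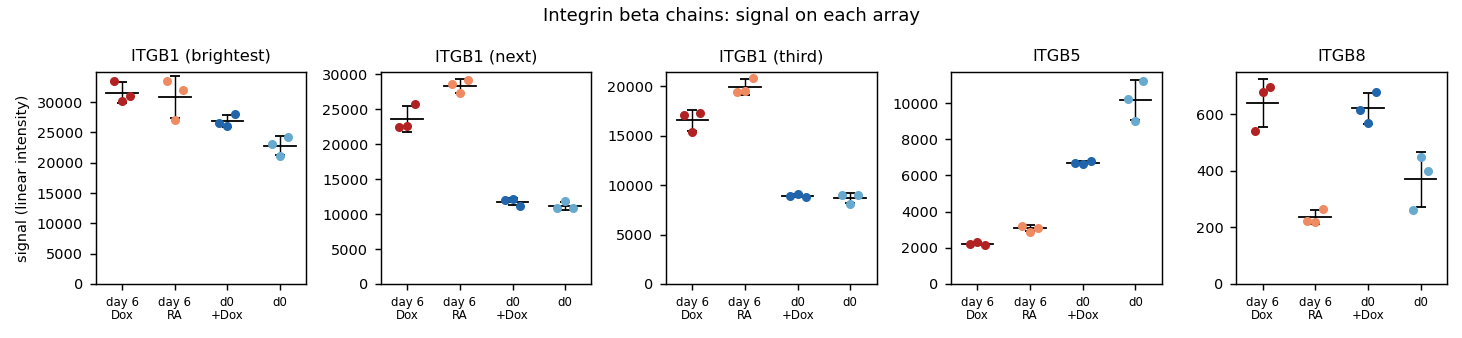
Signal (y axis, linear intensity) on each array for the 3 bright ITGB1 probe sets, ITGB5 and ITGB8, by group on the x axis, with 3 points per group and lines for the mean ± SD. On the next brightest ITGB1 probe set the Dox-labelled and RA-labelled day 6 groups averaged 23578 and 28360, above 11758 at d0 with Dox and 11206 at d0, while ITGB5 is lower at day 6.

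Alpha chains that pair with ITGB1 to bind collagen were among the largest changes of the set. ITGA1, a receptor chain for basement membrane collagen, read 4714, 4424 and 4957 on Dox-labelled day 6 arrays, 2290.1, 2712 and 2412 on RA-labelled ones, 294, 336 and 261 at d0 with Dox, and 360.3, 372 and 263 at d0. The day 6 groups did not overlap each other or the d0 groups, which overlapped. ITGA1 rose by 3.92 ± 0.14 in the Dox-labelled arm (15.1-fold, adjusted p = 1.1e-08) and by 2.85 ± 0.14 in the RA-labelled arm (7.21-fold, adjusted p = 6.16e-08), and was 0.93 ± 0.14 higher in log2 on Dox-labelled than on RA-labelled day 6 arrays (adjusted p = 0.00082). With Dox at d0 it was not called (-0.14 ± 0.14), though a second, dimmer probe set fell by 0.50 (adjusted p over all probe sets 0.0498).

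ITGA11, a receptor chain for fibrillar collagen found mostly on fibroblasts, went the other way between the day 6 groups. It read 797, 803 and 657 on Dox-labelled day 6 arrays, 2568, 3067 and 2863 on RA-labelled ones, 179, 175 and 165 at d0 with Dox, and 197, 231 and 145 at d0. RA-labelled arrays were the highest, Dox-labelled ones came next, and the d0 groups overlapped. ITGA11 rose by 3.80 ± 0.15 in the RA-labelled arm (13.9-fold, adjusted p = 1.5e-08) and by 2.02 ± 0.15 in the Dox-labelled arm (4.06-fold, adjusted p = 1.75e-06), with -1.89 ± 0.15 between the day 6 groups (adjusted p = 1.18e-05). ITGA2, another collagen receptor chain, read 2886, 2943 and 2931 on Dox-labelled day 6 arrays, 1574, 1581 and 1302 on RA-labelled ones, 804, 763 and 633 at d0 with Dox, and 1099, 918 and 1054 at d0. No groups overlapped, and Dox-labelled day 6 was the highest and d0 with Dox the lowest. ITGA2 rose by 1.98 ± 0.11 in the Dox-labelled arm (adjusted p = 2.93e-07) and by 0.53 ± 0.11 in the RA-labelled arm (adjusted p = 0.00265), and differed by 0.97 ± 0.11 between the day 6 groups (adjusted p = 0.000159). It fell by 0.48 ± 0.11 with Dox at d0 (adjusted p = 0.0216), a call lost without d0 replicate 1 (-0.42), d0 replicate 3 (-0.45) or replicate 3 of d0 with Dox (-0.38). ITGA10, the cartilage collagen receptor chain, averaged 57.1 ± 22.7 on Dox-labelled day 6 arrays, 152 ± 23.7 on RA-labelled ones, 64.2 ± 13.9 at d0 with Dox and 88.3 ± 19.2 at d0. Its log2 fold change was -1.24 ± 0.23 between the day 6 groups (adjusted p = 0.00301) and 0.70 ± 0.23 in the RA-labelled arm (adjusted p = 0.028), the last lost without d0 replicate 1 (0.55), d0 replicate 3 (0.71) or RA-labelled replicate 3 (0.58).

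ITGA4 and ITGA9, related alpha chains that bind VCAM1, fibronectin splice forms, tenascin and osteopontin, were the genes of the set that differed most between the day 6 groups. ITGA4 read 2502.5, 3356.5 and 3234 on Dox-labelled day 6 arrays, 316, 329 and 346 on RA-labelled ones, 98.5, 106 and 129 at d0 with Dox, and 131, 132 and 99.4 at d0. Each day 6 group stood apart from all others, and the d0 groups overlapped. ITGA4 rose by 4.58 ± 0.14 in the Dox-labelled arm (23.9-fold, adjusted p = 4.87e-09) and by 1.35 ± 0.14 in the RA-labelled arm (2.55-fold, adjusted p = 1.79e-05), and was 3.13 ± 0.14 higher in log2 on Dox-labelled than on RA-labelled day 6 arrays (8.73-fold, adjusted p = 3.36e-07). All 4 of its probe sets were called in the same direction in these 3 comparisons. ITGA9 read 2086, 2042 and 2303 on Dox-labelled day 6 arrays, 231, 241 and 213 on RA-labelled ones, 183.5, 180.3 and 163 at d0 with Dox, and 285, 237 and 265 at d0. Only the Dox-labelled day 6 arrays were high, and the RA-labelled arrays overlapped those of d0. ITGA9 rose by 3.49 ± 0.09 in the Dox-labelled arm (11.3-fold, adjusted p = 1.41e-09) and was 3.14 ± 0.09 higher in log2 on Dox-labelled than on RA-labelled arrays (8.84-fold, adjusted p = 1.47e-08), and in the RA-labelled arm it was not called (-0.19 ± 0.09). A second probe set gave 1.64 and 1.55 for the same comparisons. ITGA9 fell by 0.54 ± 0.09 with Dox at d0 (adjusted p = 0.00359), but its second probe set gave 0.24, and averaged over its 4 probe sets the change was -0.06, neither of them called.

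Of the receptors for RGD proteins, ITGA5 and ITGAV rose at day 6 and ITGB5 fell. ITGA5, the alpha chain of the fibronectin receptor, read 1900.3, 1883 and 2115 on Dox-labelled day 6 arrays, 2429, 2660.2 and 2586 on RA-labelled ones, 553, 468 and 524 at d0 with Dox, and 577, 331 and 343 at d0. Day 6 and d0 arrays were far apart, and the d0 groups overlapped. ITGA5 rose by 1.90 ± 0.18 in the Dox-labelled arm (adjusted p = 1.01e-05) and by 2.62 ± 0.18 in the RA-labelled arm (adjusted p = 6.81e-07), and was not called between the day 6 groups (-0.38 ± 0.18). With Dox at d0 it was not called either (0.34 ± 0.18), but without d0 replicate 1 it was (0.59). ITGAV, the alpha chain of the vitronectin receptors, read 28187, 27062 and 28608 on Dox-labelled day 6 arrays, 32591, 26975 and 30167 on RA-labelled ones, 11229, 12696 and 11992 at d0 with Dox, and 10177, 10751 and 11333 at d0. The day 6 groups overlapped each other and lay above both d0 groups. ITGAV rose by 1.22 ± 0.09 in the Dox-labelled arm (adjusted p = 1.2e-06) and by 1.47 ± 0.09 in the RA-labelled arm (adjusted p = 2.09e-07), and was not called with Dox at d0 (0.15 ± 0.09) or between the day 6 groups (-0.09 ± 0.09). Like the brightest ITGB1 probe set, its only probe set here lay near the top of the scale at day 6.

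ITGB5, the partner of ITGAV on embryonic stem cells, read 2195, 2339 and 2167 on Dox-labelled day 6 arrays, 3216, 2900 and 3119 on RA-labelled ones, 6678, 6635 and 6802 at d0 with Dox, and 10219, 9035 and 11237 at d0. No groups overlapped, and every comparison called ITGB5 lower. It fell by 1.58 ± 0.09 in the Dox-labelled arm (adjusted p = 2.01e-07), by 1.71 ± 0.09 in the RA-labelled arm (adjusted p = 7.22e-08) and by 0.59 ± 0.09 with Dox at d0 (adjusted p = 0.0017), with -0.46 ± 0.09 between the day 6 groups (adjusted p = 0.00305). ITGB8, an ITGAV partner that activates latent TGF-beta, read 541, 678 and 696 on Dox-labelled day 6 arrays, 223, 219.7 and 265 on RA-labelled ones, 614, 569 and 678 at d0 with Dox, and 261, 450.2 and 399 at d0. Both groups labelled Dox were high and overlapped each other, and 1 d0 array lay within the range of the RA-labelled arrays. ITGB8 rose by 0.75 ± 0.18 with Dox at d0 (adjusted p = 0.0242) and was 1.37 ± 0.18 higher in log2 on Dox-labelled than on RA-labelled day 6 arrays (adjusted p = 0.000396). The call at d0 was lost without replicate 1 (0.76) or replicate 3 (0.69) of d0 with Dox, and its other 4 probe sets were near the floor. With the mean of all 5 both values were 0.36 and not called. In the RA-labelled arm ITGB8 gave -0.59 ± 0.18 (adjusted p = 0.0216), a call lost without d0 replicate 2 or 3 or RA-labelled replicate 1 or 2 (-0.43 to -0.55), and in the Dox-labelled arm it was not called (0.04 ± 0.18).

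ITGA8, a nephronectin receptor chain of embryonic mesenchyme, averaged 101 ± 29.2 on Dox-labelled day 6 arrays, 58.1 ± 12.3 on RA-labelled ones, 7.58 ± 5.54 at d0 with Dox and 21.8 ± 16.8 at d0. It rose by 2.31 ± 0.35 in the Dox-labelled arm (adjusted p = 0.000307) and by 1.07 ± 0.35 in the RA-labelled arm (adjusted p = 0.0257). The last call was lost without d0 replicate 3 (0.65), RA-labelled replicate 1 (0.96) or RA-labelled replicate 2 (1.06). ITGA2B, the platelet fibrinogen receptor chain, averaged 92.2 ± 11.8 on Dox-labelled day 6 arrays, 120.0 ± 26.0 on RA-labelled ones, 222 ± 26.2 at d0 with Dox and 215 ± 25.4 at d0. It fell by 1.14 ± 0.15 in the Dox-labelled arm (adjusted p = 0.000141) and by 0.78 ± 0.15 in the RA-labelled arm (adjusted p = 0.0016). Summed signal of 4 platelet markers was 97.4 to 151 on Dox-labelled day 6 arrays, 148 to 206 on RA-labelled ones, 458 to 502 at d0 with Dox and 390.1 to 484 at d0, and its part in the change of ITGA2B was not tested. ITGB3, its partner, had group means of at most 60.3 and was not called.

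**Figure D4:**
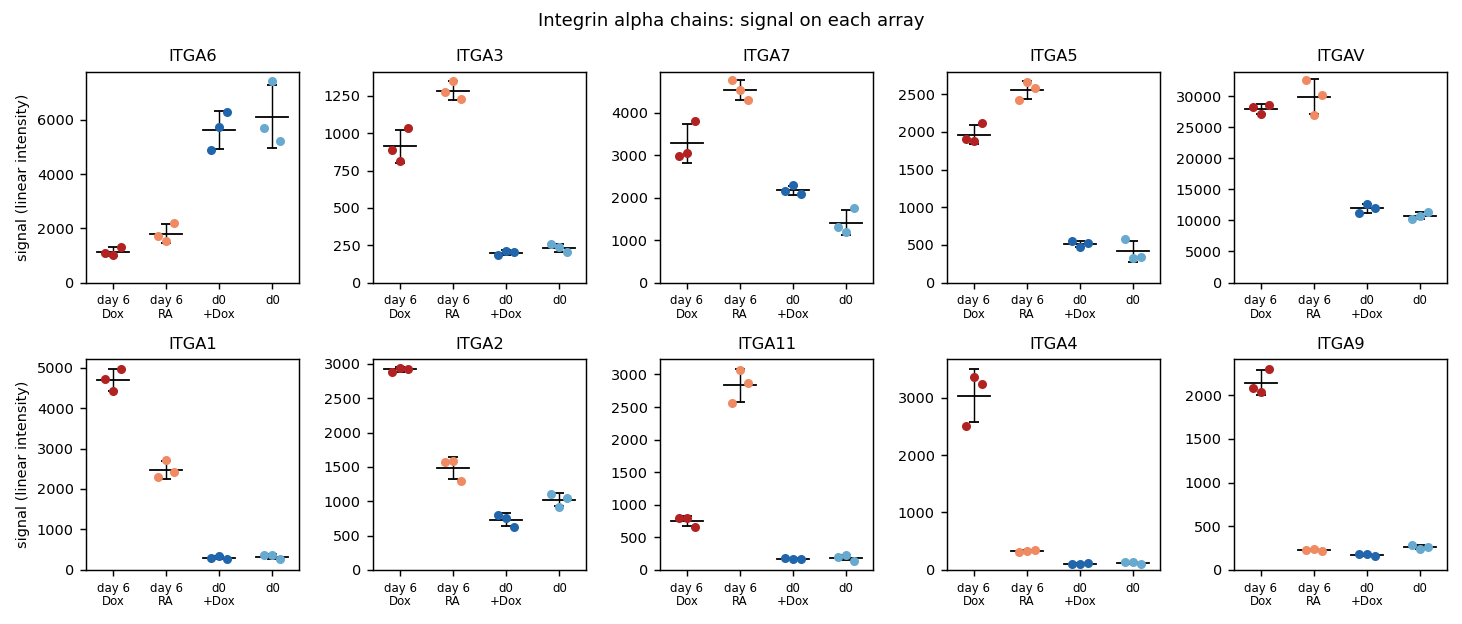
Signal (y axis, linear intensity) of 10 integrin alpha chains on each array, by group on the x axis, with 3 points per group and lines for the mean ± SD. ITGA6 is lower at day 6, the other 9 have at least 1 day 6 group above both d0 groups, and ITGA4 and ITGA9 are high on Dox-labelled day 6 arrays.

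The chains best known from leukocytes were mostly dim. ITGAL, ITGAM, ITGAX, ITGAD and ITGB7 had group means of at most 47.8, 66.0, 80.0, 7.76 and 20.6, and no comparison called them. ITGB2, the beta chain of the leukocyte integrins, read 17.9, 42.5 and 50.3 on Dox-labelled day 6 arrays, 102, 119.5 and 118 on RA-labelled ones, 54.5, 81.5 and 66.2 at d0 with Dox, and 53.2, 59.1 and 71.5 at d0. The RA-labelled arrays were the highest, and the d0 groups overlapped. ITGB2 differed by -1.34 ± 0.23 between the day 6 groups (adjusted p = 0.00172), by 0.75 ± 0.23 in the RA-labelled arm (adjusted p = 0.0189) and by -0.70 ± 0.23 in the Dox-labelled arm (adjusted p = 0.0284). The call of the RA-labelled arm was lost without d0 replicate 1 or 2 or RA-labelled replicate 2 or 3 (0.67 to 0.73), and that of the Dox-labelled arm without replicate 2 or 3 of d0 with Dox or Dox-labelled replicate 1 (-0.58, -0.70 and -0.41). With the mean of its 3 probe sets no change of ITGB2 was called (-0.58 between the day 6 groups). The 9 leukocyte markers summed to 1415 to 1527 on Dox-labelled day 6 arrays, 1168 to 1256 on RA-labelled ones, 1424 to 1616 at d0 with Dox and 1765 to 1958 at d0, and SPI1 and CD14 had means under 16 in all 4 groups. ITGAE, known from lymphocytes within epithelia, was bright, with 3756, 4122 and 3860.2 on Dox-labelled day 6 arrays, 4275, 3721 and 3931 on RA-labelled ones, 3519.8, 3587 and 3327 at d0 with Dox, and 3192, 2831 and 3096 at d0. It rose by 0.39 ± 0.08 in the RA-labelled arm (adjusted p = 0.00196) and was not called in the other 3 comparisons.

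**Figure D5:**
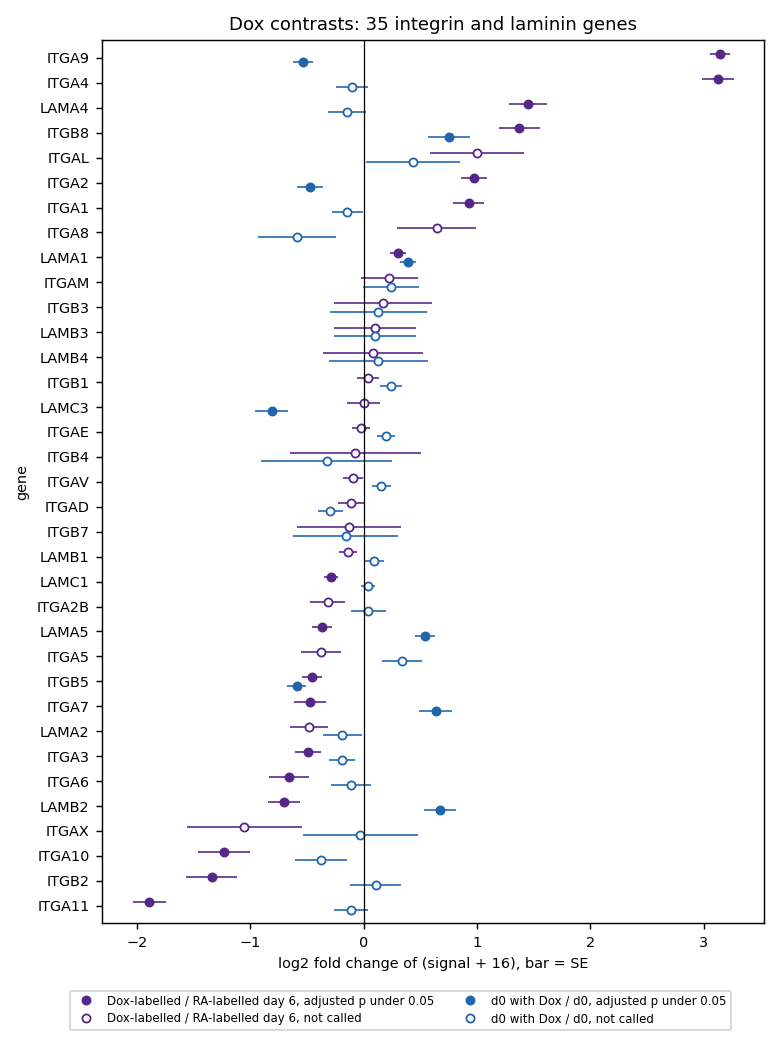
Log2 fold change (x axis) of each of the 35 genes (y axis) for Dox-labelled over RA-labelled day 6 arrays and for d0 with Dox over d0, with bars for the SE and filled points for an adjusted p under 0.05. ITGA9 and ITGA4 lie near 3 between the day 6 groups and at -0.54 and -0.10 at d0, whereas LAMB2, ITGA7 and LAMA5 are positive at d0 and negative between the day 6 groups.

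The changes of the 2 arms were also set against each other in the same fit, a contrast added after the data were seen. It equals the difference between the day 6 groups minus that between the d0 groups. The difference between the change of the Dox-labelled arm and that of the RA-labelled arm was called for 12 of the 35 genes, 6 higher and 6 lower in the Dox-labelled arm, against 11.7% and 12.5% of all genes (24.2% in either direction). ITGA9, ITGA4, LAMA4, ITGA2, ITGA1 and LAMC3 had the higher change in the Dox-labelled arm. ITGA11, ITGB2, LAMB2, ITGA7, LAMA5 and LAMC1 had the lower one. For LAMC3 the d0 groups differed (-0.81 ± 0.15 with Dox), and the day 6 groups were not called (-0.001 ± 0.15). With the 2 day 6 groups exchanged, 12 genes were again called, 6 higher and 6 lower, against 7.18% and 11.0% of all genes (18.1% in either direction), but only 7 of them were the same genes. The differences of LAMB2 (0.035), LAMA5 (-0.17), ITGA7 (-0.16), ITGA2 (-0.50) and LAMC1 (0.25) were then not called, while ITGA3, ITGA10, ITGB5, ITGB8 and LAMA1 were. The difference was not called for ITGA6 (-0.55 ± 0.25), ITGB5 (0.13 ± 0.12), ITGAV (-0.25 ± 0.12), ITGA5 (-0.71 ± 0.25), ITGA3 (-0.30 ± 0.16), LAMB1 (-0.23 ± 0.11) or LAMA1 (-0.09 ± 0.10).

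Genes that work with integrins and laminins were described from 3 lists of 102 genes, of which 96 were measured. Their counts stand beside the shares of all genes, of which 22.2% rose and 23.9% fell in the Dox-labelled arm. In the RA-labelled arm these shares were 25.3% and 25.2%. Between the day 6 groups 13.7% of all genes were higher and 12.2% lower on Dox-labelled arrays, and 7.75% rose and 5.16% fell with Dox at d0. Of 22 basement membrane partners, 9 rose and 5 fell in the Dox-labelled arm, and 13 rose and 3 fell in the RA-labelled arm (medians 0.16 and 0.92). COL7A1, the anchoring fibril collagen, averaged 1791 on Dox-labelled day 6 arrays against 306 at d0 with Dox (2.49 ± 0.14), and 2656 on RA-labelled ones against 383 at d0 (2.76 ± 0.14). COL4A2, a basement membrane collagen chain, rose by 1.80 ± 0.07 in the RA-labelled arm, and NTN4, a netrin that binds laminin, rose by 1.48 ± 0.24 and 1.70 ± 0.24 in the Dox-labelled and RA-labelled arms. FRAS1 and FREM2, which form a complex of embryonic basement membranes, fell by 2.30 ± 0.09 and 2.97 ± 0.14 in the RA-labelled arm. They were 1.48 ± 0.09 and 3.22 ± 0.14 higher in log2 on Dox-labelled than on RA-labelled day 6 arrays. NID2, a nidogen that links laminin to collagen, was 2.71 ± 0.26 higher on Dox-labelled than on RA-labelled arrays and rose by 1.39 ± 0.26 with Dox at d0 (means 1169 and 438 at d0 with Dox and at d0). Between the day 6 groups 4 of these 22 genes were higher and 7 lower on Dox-labelled arrays, the lower ones including PLEC (-1.35 ± 0.20) and DST (-1.03 ± 0.10), which anchor ITGB4 to the cytoskeleton, and AGRN (-0.92 ± 0.13), a proteoglycan that binds laminin. Dox at d0 was followed by 8 rises, among them FREM1 (1.57 ± 0.38) and NID1 (0.65 ± 0.11), and by 0 falls.

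More of the other integrin ligands rose than fell at day 6 in both arms. Of 31 measured, 24 rose and 4 fell in the Dox-labelled arm (median 1.28), against 22.2% and 23.9% of all genes. In the RA-labelled arm 18 rose and 4 fell (median 1.10), against 25.3% and 25.2%. The shares of all genes higher and lower were 13.7% and 12.2% between the day 6 groups, and 7.75% and 5.16% with Dox at d0. POSTN, a matrix protein bound by ITGAV receptors, averaged 10845 on Dox-labelled day 6 arrays against 248.6 at d0 with Dox (5.36 ± 0.13), and was 3.38 ± 0.13 higher than on RA-labelled arrays (1042). The fibrinogen chains FGB and FGG rose by 3.71 ± 0.63 and 3.41 ± 0.45 in the Dox-labelled arm and were 2.60 ± 0.63 and 3.05 ± 0.45 higher on Dox-labelled than on RA-labelled arrays. In the RA-labelled arm the largest rises were those of TGFB1, whose latent form binds ITGAV receptors (4.61 ± 0.16), TGFBI (3.90 ± 0.08) and TNC, the tenascin bound by ITGA9 (3.28 ± 0.06). CDH1, the E-cadherin bound by ITGAE, averaged 5702 on Dox-labelled day 6 arrays against 10866 at d0 with Dox (-0.93 ± 0.08), and 1432 on RA-labelled ones against 13191 at d0 (-3.19 ± 0.08). THBS2 fell by 1.88 ± 0.12 and 0.78 ± 0.12 and MADCAM1, a ligand of ITGA4 with ITGB7, by 1.61 ± 0.20 and 1.60 ± 0.20 in the Dox-labelled and RA-labelled arms. Between the day 6 groups 9 ligands were higher and 6 lower on Dox-labelled arrays, with THBS2 at -1.72 ± 0.12, ADAM9 at -0.79 ± 0.08 and L1CAM at -0.76 ± 0.07. Among ligands 4 rose with Dox at d0, led by TGFB1 (1.15 ± 0.16), FBN1 (1.07 ± 0.08) and FBN2 (0.61 ± 0.09), and 7 fell, led by L1CAM (-0.81 ± 0.07), THBS2 (-0.62 ± 0.12) and THBS1 (-0.51 ± 0.11).

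Of 43 integrin adaptors and signalling genes, 29 rose in each arm, while 3 fell in the Dox-labelled arm and 2 in the RA-labelled arm (medians 0.64 and 0.69). Over all genes 22.2% rose and 23.9% fell in the Dox-labelled arm, and 25.3% rose and 25.2% fell in the RA-labelled arm. The shares higher and lower were 13.7% and 12.2% between the day 6 groups, and 7.75% and 5.16% with Dox at d0. TGFB1I1 and PARVA, focal adhesion proteins, rose by 2.52 ± 0.12 and 2.27 ± 0.08 in the Dox-labelled arm and by 2.43 ± 0.12 and 2.46 ± 0.08 in the RA-labelled arm. NEDD9, a docking protein of focal adhesions, rose by 2.49 ± 0.07 in the Dox-labelled arm, and TNS1, a tensin, by 3.24 ± 0.10 in the RA-labelled arm. KANK1 fell by 0.96 ± 0.08 and 1.11 ± 0.08 in the 2 arms, FERMT1, the epithelial kindlin, by 1.04 ± 0.13 in the RA-labelled arm, and KANK2 and LPXN by 0.61 ± 0.07 and 0.56 ± 0.10 in the Dox-labelled arm. Between the day 6 groups 4 were higher on Dox-labelled arrays, among them FERMT1 (1.40 ± 0.13), PXN (0.59 ± 0.18) and TNS3 (0.53 ± 0.08), and 12 lower, among them CAV1 (-1.14 ± 0.06), LIMS1 (-1.02 ± 0.31) and TNS1 (-0.89 ± 0.10). In undifferentiated cells given Dox, KANK2 rose (0.60 ± 0.07) and 4 fell, among them CAV1 (-1.13 ± 0.06), NEDD9 (-0.76 ± 0.07) and FERMT1 (-0.54 ± 0.13).

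Markers of other cell types moved with the same comparisons. Their counts stand beside 22.2% of all genes rising and 23.9% falling in the Dox-labelled arm, and 25.3% and 25.2% in the RA-labelled arm. Between the day 6 groups 13.7% of all genes were higher and 12.2% lower on Dox-labelled arrays. The 10 fibroblast and mesenchyme markers summed to 101039 to 104677 on Dox-labelled day 6 arrays, 81909.7 to 93834 on RA-labelled ones, 34074 to 35085 at d0 with Dox and 32211 to 33954 at d0. Of these markers 9 rose and 1 fell in the Dox-labelled arm, and 8 rose and 1 fell in the RA-labelled arm. The 9 epithelial markers summed to 72049 to 74455 on Dox-labelled day 6 arrays, 38909.8 to 41807 on RA-labelled ones, 41919 to 44218 at d0 with Dox and 49032 to 52915 at d0. Although this sum was higher on Dox-labelled day 6 arrays than at d0 with Dox, 2 of the markers rose and 4 fell in that arm (median -0.21). In the RA-labelled arm 2 rose and 5 fell (median -1.99), and 7 were higher and 0 lower on Dox-labelled than on RA-labelled day 6 arrays. The 8 endoderm markers measured summed to 10001 to 12244 on Dox-labelled day 6 arrays, 2923 to 5878 on RA-labelled ones, 1440.4 to 1562 at d0 with Dox and 1514 to 1725 at d0. Of these 8 genes 5 rose and 1 fell in the Dox-labelled arm, 4 rose and 1 fell in the RA-labelled arm, and between the day 6 groups GATA6 (2.34 ± 0.10) was higher and CXCR4 (-0.69 ± 0.10) lower on Dox-labelled arrays with 6 not called. The 8 muscle markers summed to 46414 to 48194, 37896 to 40599, 14188 to 14569 and 17604 to 18799.8 in the same groups and order, with MYOG under 16 in every group mean. Of the muscle markers 3 rose in the Dox-labelled arm and 5 in the RA-labelled arm, and 0 fell. The part of these markers in the changes of the integrins and laminins was not tested. In bulk RNA a change in the share of a cell type and a change of RNA per cell cannot be told apart.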

How the data were processed

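Biotin-labelled total RNA was read on 12 oligonucleotide arrays of 54675 probe sets. The sample titles gave the group and the replicate number of each array. The deposited values are linear intensities. The authors' background correction, probe summary and scaling are not given in the sources used here. With the lowest and highest 2% of probe sets left out, each array averaged 499.9 in the deposited intensities, so values are relative to the other probe sets of an array. The platform annotation listed 42898 probe sets, 41097 with 1 gene symbol and 1801 with several, and 11777 were not listed. Symbols of 41043 probe sets were updated through the gene ID (RefSeq, GRCh38.p14). For 19775 genes, the value used was that of the probe set with 1 symbol whose log2 values had the highest mean. The integrin and laminin genes had 95 such probe sets, and 25 of the 35 genes had more than 1.

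The functions lmFit and eBayes of limma 3.58.1 (R 4.3.3) were run on log2(intensity + 16), fitted to all genes and all 12 arrays with a mean per group (8 residual degrees of freedom), and p-values were Benjamini-Hochberg adjusted over all genes with a threshold of 0.05. Probe sets of 1 gene were tested in a fit over all probe sets. The fit was also run on simulated data, with changes planted only in d0 with Dox and only in genes at or above the median. That run does not cover dim members or the other comparisons. The members follow the symbol rule. This rule, the 3 partner lists and the 11 marker lists were set with earlier results of these data known. Called members whose higher group mean reached the median gene were given by array, up to 6 rises and 6 falls per comparison, beside 11 genes known from stem cell culture and dim members for completeness. Up to 3 rises and 3 falls of each partner list were named. Comparisons that share a group of arrays are not independent.

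Alternatives were quantile normalization, median centring, pseudocounts of 1 and 64, a filter on dim genes, other choices of probe set, array weights, a trended robust variance, a 2-fold minimum, fits of only the 6 arrays compared, the replicate number as a block, leaving out each array and, for the difference between the arms, exchanging the day 6 groups. Same-numbered arrays of compared groups correlated at r = 0.018 to 0.164 in their deviations from the group means, and not every pair passed 0.1, so the numbers were not taken to pair the cultures. No scan dates were used here, and batches of arrays were not tested.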

Additional observations from a re-analysis of the deposited data

Results flagged for a closer look

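The difference between day 6 and d0 groups was not the same in the 2 arms for 12 of the 35 genes. It was tested as the change from d0 with Dox to Dox-labelled day 6 minus the change from d0 to RA-labelled day 6 (log2 ± SE, limma, 3 arrays per group). By label d0 with Dox had 4 days of Dox and may not be the culture from which the Dox-labelled arm started. A difference between the d0 groups enters this contrast with its sign turned. This contrast was added after the data were seen, and it rests on day 6 labels that CYP26A1 and 3 of 7 NR6A1 probe sets go against, while 3 go with them. With the 2 day 6 groups exchanged 12 genes were called too, but 7 of them were the same genes, and ITGA4 (-3.02) then had a larger difference than ITGA9 (-2.61). The 2 largest differences were those of ITGA9 (3.68 ± 0.13, adjusted p = 1.29e-07) and ITGA4 (3.23 ± 0.20, adjusted p = 4.64e-06), chains of receptors for tenascin, VCAM1 and fibronectin splice forms. LAMA4 (1.59 ± 0.24, adjusted p = 0.000941) and the collagen receptor chains ITGA2 (1.45 ± 0.16, adjusted p = 0.000171) and ITGA1 (1.07 ± 0.20, adjusted p = 0.00315) also rose more in the Dox-labelled arm. LAMC3 fell less there (0.81 ± 0.21, adjusted p = 0.0182). That difference was the one at d0, where LAMC3 was lower with Dox (-0.81 ± 0.15). Between the day 6 groups LAMC3 was not called (-0.001 ± 0.15). The collagen receptor chain ITGA11 rose less in the Dox-labelled arm (-1.78 ± 0.21, adjusted p = 0.000249), and so did LAMB2 (-1.38 ± 0.20, adjusted p = 0.00088), ITGA7 (-1.11 ± 0.20, adjusted p = 0.00313), LAMA5 (-0.90 ± 0.13, adjusted p = 0.000626) and LAMC1 (-0.33 ± 0.09, adjusted p = 0.0225). ITGB2 fell in the Dox-labelled arm and rose in the RA-labelled arm (-1.45 ± 0.32, adjusted p = 0.00879). For LAMB2, LAMA5, ITGA7, ITGA9 and ITGA2 the d0 groups already differed, as called, in the direction opposite to the day 6 groups. Exchanged, the differences of LAMB2 (0.035), LAMA5 (-0.17), ITGA7 (-0.16) and ITGA2 (-0.50) were not called. The call of LAMC1 was lost with median centring (-0.28, adjusted p = 0.0752), without replicate 3 of d0 with Dox (-0.30), without RA-labelled replicate 2 (-0.32) or without Dox-labelled replicate 1 (-0.30). With the mean of their probe sets ITGB2 (-0.65), LAMA4 (0.53), LAMC3 (0.49) and LAMC1 (-0.25) were not called.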

How the results depend on the processing

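No called change of an integrin or laminin gene turned its direction under any alternative run within a comparison of 2 groups. The difference between the arms with the 2 day 6 groups exchanged, chosen after seeing the data, was opposite in sign for ITGA1 (-0.78), ITGA2 (-0.50), ITGA4 (-3.02), ITGA9 (-2.61), LAMA4 (-1.30), ITGA11 (2.004), ITGB2 (1.24), LAMB2 (0.035) and LAMC1 (0.25), and for genes called only when exchanged, ITGA3 (0.68), ITGA10 (1.61) and ITGB8 (-2.12). With Dox at d0 the calls among the 35 genes numbered 9, 5 with the 6 arrays alone and 0 with a 2-fold minimum (all genes 2552, 1522 and 365). Of the partner genes, 24 were called with Dox at d0, 11 with a gene's probe sets averaged, 15 without replicate 1 of d0 with Dox and 5 with a 2-fold minimum (all genes 2552, 1722, 1796 and 365). The 2-fold minimum left 7 of 17 members, 1144 of 5120 genes and 15 of 42 partners between the day 6 groups, 14 of 24 members and 4219 of 9993 genes in the RA-labelled arm, and 3430 of 9120 genes and 45 of 74 partners in the Dox-labelled arm. Leaving out 1 array gave 7 to 9 members with Dox at d0, 15 to 18 between the day 6 groups, 21 to 25 in the RA-labelled arm and 20 to 23 in the Dox-labelled arm. With the replicate block the calls were 9, 18, 24 and 22 members in the same order (samples with the same number share only a number), and LAMA5 in the Dox-labelled arm (0.24, adjusted p = 0.0558) was the member call lost. Averaging a gene's probe sets mattered most for single genes: ITGA2 (-0.49) with Dox at d0, and ITGA7 (-0.28) and ITGB5 (-0.31) between the day 6 groups, were not called, and the rise of ITGA9 in the Dox-labelled arm was 1.71. Centring arrays on their medians took the call from ITGA7 between the day 6 groups (-0.44) and from the LAMC1 difference between the arms (-0.28), and both other scalings took it from ITGB2 in the Dox-labelled arm (-0.56). The cause of these losses was not tested. The size of the ITGA8 changes depends on the pseudocount (3.73 and 1.83 in the Dox-labelled and RA-labelled arms with a pseudocount of 1), since signal at d0 was near the floor. Dim members are limited by the signal over background.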

Other observations

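Marker lists of 4 further cell types were read on the same arrays. Over all genes 22.2% rose and 23.9% fell in the Dox-labelled arm, and 25.3% rose and 25.2% fell in the RA-labelled arm. Between the day 6 groups 13.7% of all genes were higher and 12.2% lower on Dox-labelled arrays. Of 8 endothelial markers, 1 rose and 3 fell in the Dox-labelled arm and 4 rose and 2 fell in the RA-labelled arm, with summed signal of 1505 to 1684 on Dox-labelled day 6 arrays, 1525 to 1616 on RA-labelled ones, 2213 to 2751 at d0 with Dox and 2541 to 2583 at d0. Of 7 neural crest markers, 4 rose and 2 fell in each arm, with sums of 9391 to 9421 on Dox-labelled day 6 arrays, 6862 to 7539 on RA-labelled ones, 3418 to 3994 at d0 with Dox and 5898 to 6462 at d0. Neural markers (8 measured) gave 2 rises and 3 falls in the Dox-labelled arm and 3 rises and 3 falls in the RA-labelled arm, with sums of 19062 to 19309 on Dox-labelled day 6 arrays, 19179 to 20779 on RA-labelled ones, 10844 to 11289 at d0 with Dox and 11774 to 12901 at d0. Trophoblast markers (7 measured) gave 3 rises and 2 falls in each arm, with sums of 11966 to 12591 on Dox-labelled day 6 arrays, 6430.2 to 7134 on RA-labelled ones, 4211 to 4795 at d0 with Dox and 3576 to 4571 at d0. Of these, 2 were higher on Dox-labelled than on RA-labelled day 6 arrays, GATA3 (1.01 ± 0.06) and KRT7 (1.45 ± 0.22), and 0 were lower.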
